A study of Mus musculus with 10 samples.

Results

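Bergmann glia and homeostatic astrocyte genes were followed by RNA-Seq in 2 brain regions, cerebellum and cortex, of Snx14-KO and control mice aged 1 year. The set held 10 genes chosen by name, Slc1a2, Slc1a3, Aqp4, Gja1, Gjb6, Slc4a4, Agt, Gdf10, Hopx and Timp4, out of 55536 mouse genes in the count tables, and all 10 passed the filter on low counts in each comparison. KO mice carried a frameshift deletion in both copies of Snx14, made by CRISPR/Cas9 in the C57BL/6J strain and present in every cell. The 3 controls were 2 Het mice (controls 1 and 2), which carry 1 copy of the mutant allele, and 1 WT mouse (control 3). There were 2 KO mice, and all 5 mice gave both tissues, for 10 libraries from whole dissected tissue holding a mixture of cell types.

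Astrocytes clear glutamate and potassium from the space around synapses, move water and bicarbonate across their membranes, and are joined into networks by gap junctions. Bergmann glia are a type of astrocyte of the cerebellar cortex. Their cell bodies lie beside those of Purkinje cells (PCs), and their processes run through the molecular layer and wrap PC dendrites and synapses. Other astrocytes of the cerebellum lie in the granule layer and white matter. In whole tissue, fewer cells of a type and less RNA per cell cannot be told apart.

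The libraries held 16088310 to 22975355 gene counts. Snx14 counts-per-million (CPM) values in cerebella were 44.3 and 41.5 in Het controls, 76.1 in the WT control and 16.0 to 18.0 in KO mice. In cortices they were 33.1 and 33.8 in Het controls, 48.8 in the WT control and 14.5 to 15.5 in KO mice. The KO values lay below all controls in both tissues. Summed CPM of 12 granule cell markers were 5381 to 6274 in cerebella and 1169 to 1655 in cortices. Control 2 stood apart in cortex, where 12 striatal markers summed to 4590 CPM against 1879 and 2067 in the other controls and 623 and 1173 in KO mice. It was the lowest control for 6 of the 10 genes in each tissue, compared with 39.1% of all genes in cerebellum and 38.5% in cortex. The WT control lay above both Het controls for 7 of the 10 genes in cerebellum and below both for 0. In cortex it lay above both for 1 gene and below both for 3. The share of all genes in these positions was not computed.

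To place the genes by tissue, levels were first compared between genes as transcripts-per-million (TPM), which correct for exonic length. In control cerebella, Slc1a3, the glutamate transporter GLAST, was the most abundant of the set at 542 ± 58.5 TPM (SD, n = 3). Hopx, a small homeodomain protein without DNA binding, followed at 363 ± 17.9 TPM. Aqp4 at 192 ± 11.8 TPM and Slc1a2 at 174 ± 12 TPM came next, with ranges of 183 to 205 and 161 to 182 TPM that lay side by side. The levels of Slc4a4, Timp4, Gdf10, Agt and Gjb6 ran from 155 down to 120 TPM, with SDs of 6.73 to 30.1, and the ranges of neighbours in that order overlapped. Gja1 was lowest at 65.3 ± 3.53 TPM.

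In control cortices the order was different. Slc1a2, the transporter GLT-1, led at 523 ± 130 TPM, and Slc1a3 followed at 167 ± 41.4 TPM. Gjb6 at 61.2 ± 13.7 TPM and Hopx at 54.8 ± 1.33 TPM overlapped, as did Slc4a4, Gja1 and Aqp4 between 44.1 and 37.0 TPM. Timp4 stood at 29.8 ± 6.31 TPM and Agt at 13.7 ± 1.89 TPM. Gdf10 was near the floor of the set at 4.36 ± 0.412 TPM.

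Cerebellum and cortex of the control mice were then compared gene by gene, with a call requiring an adjusted p under 0.05 in edgeR's quasi-likelihood test with Benjamini-Hochberg adjustment and an absolute log2 fold change over 0.5. Of the 10 genes, 8 were called higher in cerebellum and 1 lower, against a background of 19.1% of all genes tested called higher and 21.5% lower. In 9 genes every cerebellar control lay above every cortical one (31.3% of all genes), and in Slc1a2 every cerebellar control lay below (30.6%).

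Gdf10, Agt and Hopx had the widest gaps. Gdf10, a ligand of the TGF-β superfamily used as a Bergmann glia marker, was 26.8, 19.7 and 32.2 times higher in the cerebellum than in the cortex of controls 1 to 3. Its log2 fold change was 4.70 ± 0.176 (SE, adjusted p = 1.65e-07). Agt, which encodes angiotensinogen, the precursor of the angiotensin peptides, was 8.60, 6.54 and 9.58 times higher (log2 fold change 3.00 ± 0.142, adjusted p = 5.65e-07). All 3 mice showed each of these differences. Hopx was 5.40, 5.63 and 5.97 times higher (2.50 ± 0.0964, adjusted p = 1.91e-07).

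Of the other genes, the water channel gene Aqp4 had a log2 fold change of 2.16 ± 0.168 (adjusted p = 1.05e-05). Timp4, an inhibitor of matrix metalloproteinases, had 1.96, the sodium bicarbonate cotransporter gene Slc4a4 had 1.58 and Slc1a3 had 1.48. The 2 glutamate transporters thus went in opposite directions, with Slc1a2 at -1.80 ± 0.149 (adjusted p = 1.53e-05). The 2 connexin genes, which encode gap junction subunits, were closest to parity. Gjb6 was called at 0.75 ± 0.142 (adjusted p = 0.00202), while Gja1 was at 0.49 ± 0.0918 (adjusted p = 0.00208), just under the fold minimum, and passed it in 5 of 12 alternatives.

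**Figure D1:**
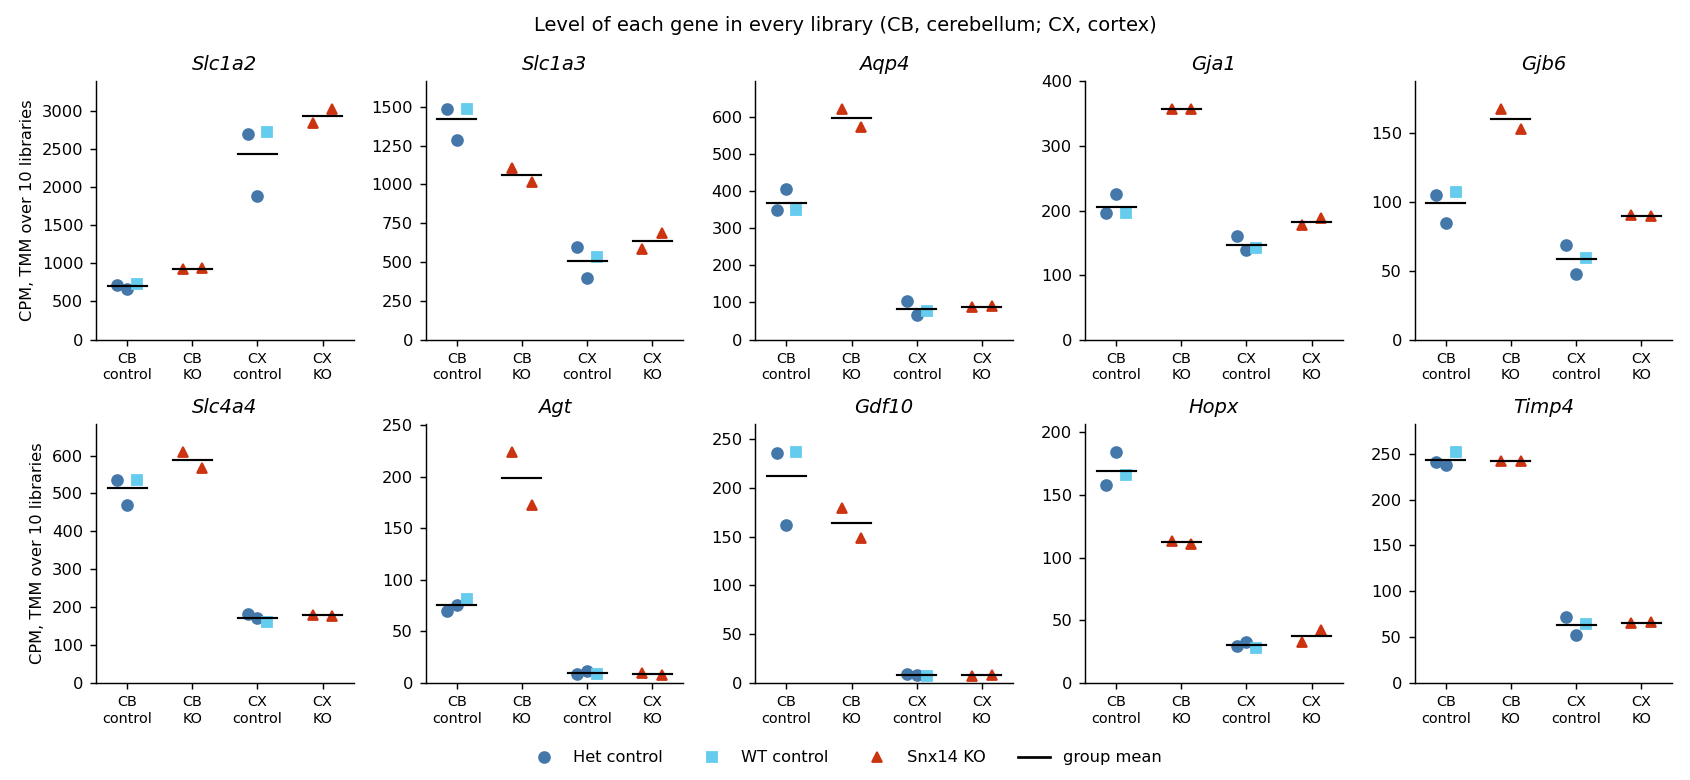
CPM values of the 10 genes in every library, scaled by TMM factors over all 10 libraries; the x axis gives tissue and genotype class, points are single libraries and bars are group means. The KO cerebella held Agt at 224 and 173 CPM against 69.6 to 81.2 in controls, and Hopx at 113 and 111 CPM against 158 to 184.

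The promoters of Agt, Hopx and Slc1a3 are shown because these genes gave the largest rise, the called fall and the most abundant transcript in cerebellum. The sequences are the 250 bases before the start site in RefSeq (GRCm38.p6), 5′ to 3′ on the strand of the gene, and capitals mark matches to TATAAA or TTCNNNGAA on either strand. All 3 genes lie on the minus strand. Agt spans chr8:124556534-124569706 and its window chr8:124569707-124569956. Hopx spans chr5:77086988-77115121, with the window of its upstream start site at chr5:77115124-77115373. Slc1a3 spans chr15:8634124-8710764, with its window at chr15:8710808-8711057, and the 3 windows overlap no annotated exon.
Agt: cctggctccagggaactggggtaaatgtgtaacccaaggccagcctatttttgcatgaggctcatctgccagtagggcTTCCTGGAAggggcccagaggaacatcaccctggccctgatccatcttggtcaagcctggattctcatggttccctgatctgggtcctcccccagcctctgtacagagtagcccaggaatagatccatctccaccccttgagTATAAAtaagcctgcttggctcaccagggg
Hopx: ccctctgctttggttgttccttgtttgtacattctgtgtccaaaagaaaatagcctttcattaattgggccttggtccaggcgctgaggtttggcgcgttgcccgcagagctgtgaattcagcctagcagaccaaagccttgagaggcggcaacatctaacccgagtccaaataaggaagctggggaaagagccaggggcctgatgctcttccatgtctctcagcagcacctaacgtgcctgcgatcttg
Slc1a3: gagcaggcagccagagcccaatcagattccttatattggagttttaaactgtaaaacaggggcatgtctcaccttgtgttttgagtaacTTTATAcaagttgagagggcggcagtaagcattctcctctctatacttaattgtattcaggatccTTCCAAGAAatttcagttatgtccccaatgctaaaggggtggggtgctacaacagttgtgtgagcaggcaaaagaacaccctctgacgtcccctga

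The table of promoters held 11 windows for 9 of the 10 genes, and Aqp4 had no entry. A TATA box motif (TATAAA) was found in the windows of Agt and Slc1a3, at -30 to -25 from the start of Agt and, on the opposite strand, at -161 to -156 from that of Slc1a3, and 12.4% of all 32851 windows held one. The same 2 windows held the STAT motif TTCNNNGAA, at -172 to -164 in Agt and -96 to -88 in Slc1a3, which was found in 7.02% of all windows. The palindromic NFI motif was in none of the 11 and in 0.0365% of all. No match overlapped another.

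To ask how loss of Snx14 changed these genes, KO and control cerebella were compared. Of the 10 genes, 4 were called higher (Agt, Gja1, Gjb6 and Aqp4) and 1 lower (Hopx), where 0.514% of all genes tested were called higher and 1.04% lower. In 6 genes both KO cerebella lay above all 3 controls (14.7% of all genes), and in Hopx and Slc1a3 both lay below (15.5%). The median log2 fold change of the 10 genes was 0.29, beside 0.00 over all genes. Across the same libraries the summed CPM of 12 PC markers were 9473 to 11214 in controls and 4814 to 4972 in KO mice, and all 12 fell. The part of the PC fall in the glial results was not tested.

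Agt rose most. Controls 1 to 3 held 72.0, 78.6 and 84.3 CPM and the KO mice 231 and 179, so the lower KO library was still above every control. The log2 fold change was 1.39 ± 0.110 (SE), a 2.61-fold difference (adjusted p = 0.000776), and 99.5% of genes tested had a smaller one. Markers of choroid plexus and ependyma, summed over 9 genes, were 80.9 CPM in KO 1 and 1209 to 3428 in the other cerebella, and without KO 1 the log2 fold change of Agt was 1.19. Agt was called in each of 11 alternatives, with an adjusted p of at most 0.00904.

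The gap junction genes rose together. Gja1, the main connexin gene of astrocytes, had 203, 235 and 204 CPM in controls and 367 and 370 in KO mice. The log2 fold change was 0.78 ± 0.0807 (adjusted p = 0.00269), and the gene was called in each of 11 alternatives. Gjb6, which encodes a second astrocyte connexin, had 108, 88.2 and 111 CPM in controls and 172 and 158 in KO mice. Both KO libraries lay above the controls, with a log2 fold change of 0.69 ± 0.0987 (adjusted p = 0.0108). The call of Gjb6 was lost without control 1 (adjusted p = 0.0512) and without KO 1 (adjusted p = 0.0711), and its adjusted p ran from 2.46e-17 to 0.0711 over the alternatives.

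Aqp4, the water channel of astrocyte endfeet, had 361, 423 and 363 CPM in controls and 640 and 591 in KO mice, with no overlap. Its log2 fold change of 0.69 ± 0.0932 passed the test (adjusted p = 0.00866). The call was lost without control 1 (adjusted p = 0.0629), control 3 (adjusted p = 0.0596) or KO 1 (adjusted p = 0.0618), within a range of 4.21e-13 to 0.0629 over the alternatives. None of the 9 genes of its anchoring complex, which ties the channel to dystrophin and laminin, was called, with a median of 0.06.

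Hopx fell by 0.60 on the log2 scale (SE 0.0781, adjusted p = 0.00723). Controls held 163, 192 and 172 CPM and KO mice 117 and 115, so the KO libraries were close to each other and below all controls. Without KO 1 the adjusted p was 0.0597, the highest in a range from 2.87e-13. Of the exonic bases of Hopx, 27.2% lie in Hopxos, a noncoding RNA gene on the opposite strand, and reads were counted without strand, so their reads cannot be told apart there. Hopxos itself had 1490 to 1779 counts in control and 862 and 1160 in KO cerebella, beside 3257 to 3983 and 2064 and 2677 for Hopx.

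The 2 glutamate transporters, which take up synaptic glutamate, lay on opposite sides of their controls without a call. Slc1a2 had 741, 697 and 751 CPM in controls and 953 and 967 in KO mice, a log2 fold change of 0.40 ± 0.0809. Its adjusted p of 0.0492 was under the threshold but the fold was under the minimum. Slc1a3 had 1539, 1339 and 1542 CPM in controls and 1137 and 1051 in KO mice, a log2 fold change of -0.43 ± 0.102 (adjusted p = 0.0843). All KO values lay above the controls for Slc1a2 and below them for Slc1a3. In the rest of the family, Slc1a6, the transporter gene of PCs, fell by 0.58 on the log2 scale (SE 0.0713, adjusted p = 0.00582).

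The other 3 genes did not pass. Slc4a4 had 489 to 556 CPM in controls and 627 and 587 in KO mice (log2 fold change 0.19 ± 0.0880, adjusted p = 0.407). Timp4 had 247 to 262 CPM in controls and 249 and 250 in KO mice, which lay inside the control range (-0.02 ± 0.0636, adjusted p = 0.947). Gdf10 had 245, 169 and 246 CPM in controls and 185 and 153 in KO mice, where control 2 overlapped the KO values (-0.38 ± 0.160, adjusted p = 0.352). Without control 2 Gdf10 was called at -0.54 (adjusted p = 0.0165), within a range of 4.73e-05 to 0.748 over the alternatives.

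**Figure D2:**
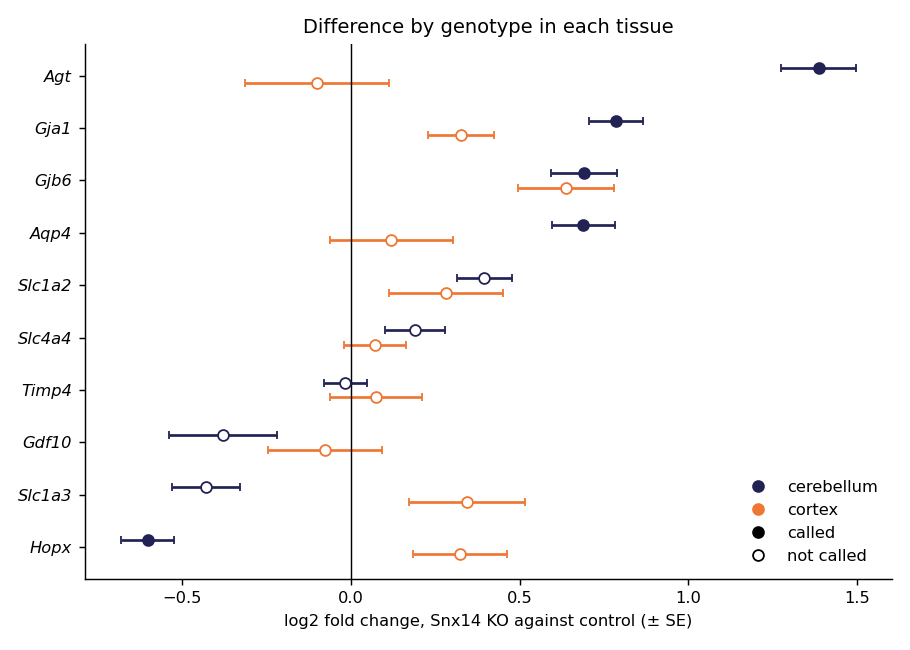
Log2 fold change of each gene between KO and control mice (x axis, bars are SE) in cerebellum and cortex; filled points were called. Agt lies furthest right in cerebellum at 1.39 and at -0.10 in cortex, and no cortical point is filled.

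In cortex, none of the 10 genes was called by edgeR, and neither was any other gene (0% higher and 0% lower). The lowest adjusted p over all genes was 0.636. Snx14 was thus not called either, although its KO values lay below all controls, so a missing call here does not show an unchanged gene. In edgeR 1139 genes had an unadjusted p under 0.05, and DESeq2 called 49 genes. The 2 connexin genes had unadjusted p-values under 0.05, and DESeq2 called no member. Both KO cortices lay above all controls for Slc1a2, Gja1 and Gjb6 (11.9% of all genes), and none of the 10 lay below (12.6%). Gjb6 was furthest apart, with 65.9, 46.1 and 56.7 CPM in controls and 88.0 and 86.8 in KO mice. Its log2 fold change was 0.64 ± 0.142 (adjusted p = 0.754).

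Control 2 was lowest for several of these genes and held the most striatal marker RNA. Without it Gjb6 was called (log2 fold change 0.51, adjusted p = 0.00905, in a range of 1.12e-05 to 0.999 over the alternatives). Without it 7 of the 10 genes were higher, and their median log2 fold change was 0.11, compared with 8 genes and 0.20 with all libraries. Gja1 had 154, 133 and 136 CPM in controls and 173 and 182 in KO mice (0.33 ± 0.0975, adjusted p = 0.754). Agt had 7.80, 11.2 and 8.13 CPM in controls and 9.52 and 7.33 in KO mice, which overlapped (-0.10 ± 0.214, adjusted p = 0.957). The other genes lay between -0.08 and 0.34 on the log2 scale. Striatal markers were higher in all 3 control cortices than in both KO cortices, with every one of 12 lower in KO mice, and their part in the cortical values was not tested.

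Whether the KO effect differed between cerebellum and cortex was tested by an interaction term over all 10 libraries, in which 0.102% of all genes had an adjusted p under 0.05. None of the 10 genes passed in edgeR with all libraries, the filter on low counts and no block for the mouse. In that fit 5 had an unadjusted p under 0.05, as did 1706 of all 20614 genes tested. DESeq2 called 3 of the 10, and it also called more of all genes than edgeR did. Agt had an interaction of 1.51 ± 0.240 on the log2 scale (adjusted p = 0.0550) and Hopx of -0.90 ± 0.163 (adjusted p = 0.0934). Because each mouse gave both tissues, the fit was repeated with the mouse as a replicate block, and Agt (1.51, adjusted p = 0.00361) and Hopx (-0.90, adjusted p = 0.0175) then passed. Over the alternatives the adjusted p of Agt ran from 1.08e-16 to 0.339 and that of Hopx from 2.53e-07 to 0.416, each highest without cortical KO 2.

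The ratio of cerebellum to cortex within each mouse describes the same contrast in the same libraries, and adds no separate test. The cerebellum held 23.0 and 22.8 times the cortical Agt of KO mice 1 and 2, above the 6.54 to 9.58 times of controls. For Hopx the ratios were 3.51 and 2.64 in KO mice and 5.40 to 5.97 in controls. Slc1a3 showed a narrower gap too, at 1.89 and 1.47 in KO mice and 2.50 to 3.25 in controls, with an interaction of -0.75 ± 0.221 (adjusted p = 0.310). For Gja1 the KO ratios of 2.02 and 1.90 lay above the control ratios of 1.22 to 1.64 (interaction 0.48 ± 0.129, adjusted p = 0.259). For Aqp4 the KO ratios of 7.15 and 6.35 lay just above those of controls, 3.33 to 6.26. The ratios of Slc1a2, Gjb6, Slc4a4, Gdf10 and Timp4 overlapped between the genotypes. The share of all genes with ratios that did not overlap was not computed, so the ratios are given as a description.

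**Figure D3:**
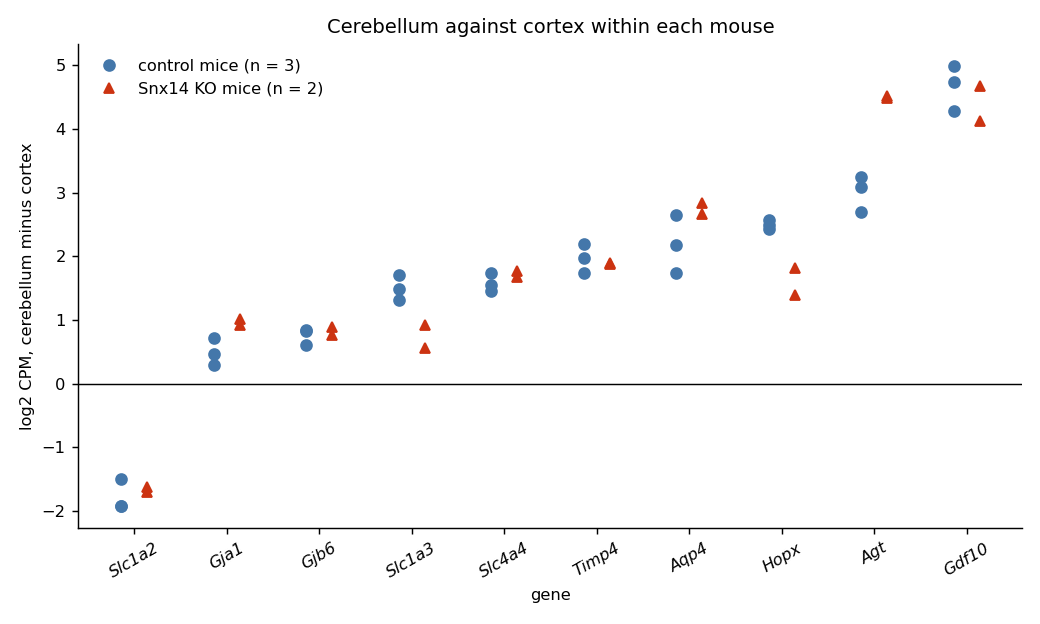
Log2 CPM in cerebellum minus log2 CPM in cortex within each mouse (y axis) for the 10 genes; circles are the 3 control mice and triangles the 2 KO mice. The KO triangles lie above the circles for Agt (4.51 and 4.49 against at most 3.24) and below them for Hopx (1.81 and 1.40 against 2.43 to 2.57).

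Ratios of TPM values between genes of 1 library do not depend on the scaling of libraries. In cerebellum, Slc1a2 stood at 0.313 to 0.338 of Slc1a3 in controls and 0.545 to 0.598 in KO mice. Aqp4 stood at 0.321 to 0.432 of Slc1a3 in controls and 0.771 in both KO mice, and Gja1 at 0.110 to 0.146 and 0.269 to 0.293. Relative to Slc1a3, these 3 astrocyte genes were thus higher in each KO library than in any control. So was Agt, at 0.211 to 0.265 of Slc1a3 in controls and 0.767 to 0.916 in KO mice. For Hopx the ratio was 0.598 to 0.806 in controls and 0.578 to 0.615 in KO mice, which overlapped. Slc1a3 itself lay below all controls in KO cerebella (log2 fold change -0.43), and a lower Slc1a3 raises every ratio to it. Gdf10 stood close to a fixed share of Slc1a3, at 0.207 to 0.262 in controls and 0.239 to 0.266 in KO mice. The ratio of Gjb6 to Gja1 was 1.44 to 2.08 in controls and 1.64 to 1.80 in KO mice, which overlapped. In cortex the ratio of Slc1a2 to Slc1a3 was 2.95 to 3.36 in controls and 2.86 to 3.16 in KO mice. That of Gdf10 to Slc1a3 in cortex was 0.0228 to 0.0342 in controls and 0.0195 to 0.0199 in KO mice, with no overlap. The cortical CPM values of Gdf10 itself overlapped between genotypes (log2 fold change -0.08). Those of Slc1a3 overlapped too, at a log2 fold change of 0.34, and a higher Slc1a3 lowers every ratio to it.

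The 10 genes did not vary as 1 block. After tissue means were subtracted from log2 CPM, each was correlated over the 10 libraries with the mean of the other 9, as a description of libraries that share mice and genotype. Gjb6 (r = 0.94), Slc1a2 (0.85), Slc4a4 (0.80), Gja1 (0.79) and Aqp4 (0.79) followed the others. Timp4 (0.44) and Agt (0.22) did so less, while Slc1a3 (-0.07), Gdf10 (-0.38) and Hopx (-0.53) did not. Of 17423 other genes, those closest to the mean of the set were Cxcl14 (r = 0.973), Mboat2 (0.972), Utp14b (0.970), Tor1aip1 (0.967) and Itih5 (0.965). Of these, Cxcl14, a chemokine gene (log2 fold change 0.60, adjusted p = 0.0104), and Itih5, a gene of the inter-alpha-trypsin inhibitor family (0.80, adjusted p = 0.00364), rose in cerebellum.

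Other astrocyte and Bergmann glia genes were then counted in KO cerebella, from lists written with earlier results of these data known. Of all genes tested there, 0.514% were called higher and 1.04% lower. Of 28 other homeostatic astrocyte genes, 23 were higher, 7 of them called and none called lower, with a median log2 fold change of 0.30. Glul, the glutamine synthetase gene, rose by 0.77 (adjusted p = 0.00526). Slc38a3, a glutamine transporter gene, rose by 0.52 (adjusted p = 0.00598) and Cbs, the cystathionine beta-synthase gene, by 0.60 (adjusted p = 0.0134). Without control 2, 5 were called higher and 1 lower, where 118 of all 19191 genes tested were called higher and 282 lower. Of 15 other Bergmann glia genes, 11 were lower, 3 of them called, with a median of -0.22, and the same number were called without control 2. Tnc, an extracellular matrix gene, fell by 1.69 on the log2 scale (adjusted p = 0.00962), Gria1, an AMPA receptor subunit gene, by 0.61 (adjusted p = 0.0263) and Gli1, a target of Sonic hedgehog signaling, by 0.71 (adjusted p = 0.0467). PCs also express Gria1, and reads do not tell its cells apart.

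Of 18 reactive astrocyte genes in KO cerebella, 16 were higher, with a median of 0.71. Of the 18, 4 were called higher (0.514% of all genes) and none lower. Both KO cerebella lay above all controls in 13 (14.7% of all genes) and below them in 1 (15.5%). Without control 2, 6 were called higher, as were 118 of all 19191 genes tested. Gfap, the intermediate filament gene of astrocytes, had 197, 200 and 232 CPM in controls and 520 and 514 in KO mice. Its log2 fold change was 1.30 ± 0.0856 (adjusted p = 0.000444). C4b, a complement gene, rose by 1.14 (adjusted p = 0.0169) and Serpina3n, a serine protease inhibitor gene, by 1.38 (adjusted p = 0.0220). In cortex none of these lists held a call, although 24 of 28 other homeostatic astrocyte genes were higher and 21 lay above all controls, with a median of 0.27, where 11.9% of all genes did so. Without control 2, 26 were higher and 22 lay above, with a median of 0.21, where 3863 of all 18968 genes tested lay above. Vascular and meningeal markers were also mostly higher in KO cortices with none called, in 8 of 8 endothelial (median 0.51), 8 of 8 leptomeningeal fibroblast (0.57) and 7 of 8 mural genes (0.27). Without control 2 these were 8, 7 and 6 genes, with medians of 0.43, 0.34 and 0.11, and their part in the astrocyte values was not tested.

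**Figure D4:**
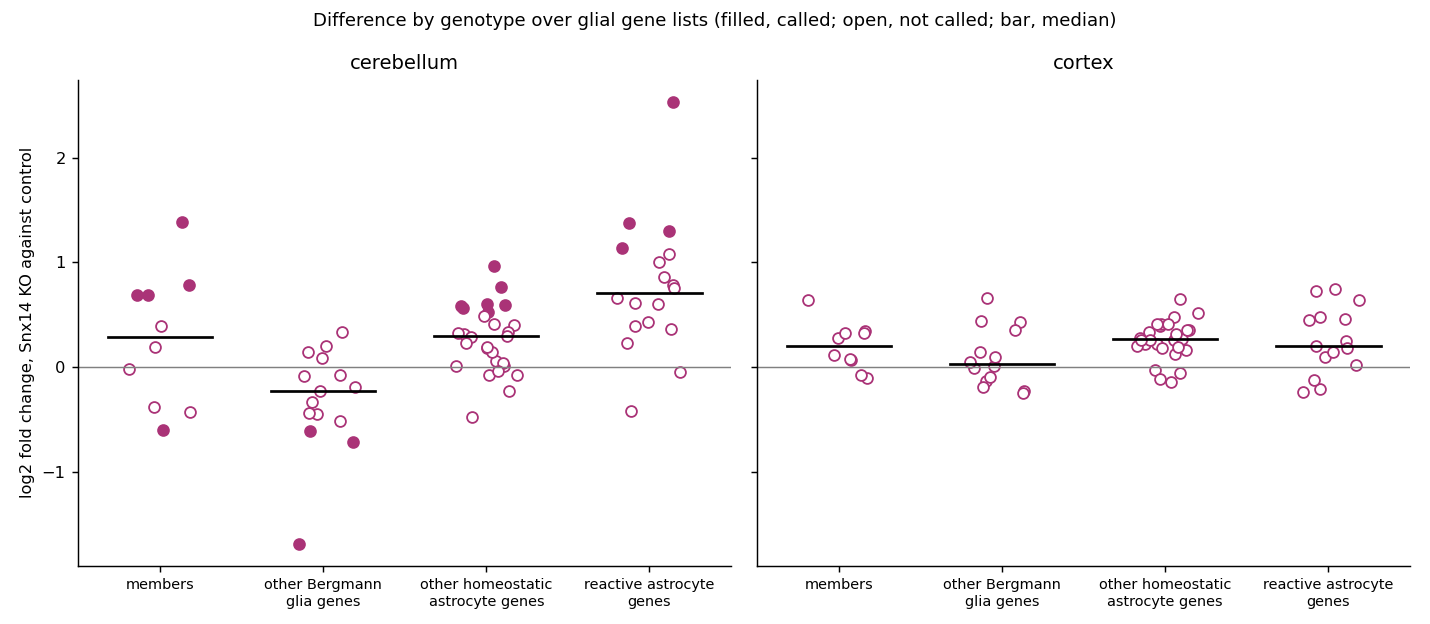
Log2 fold change between KO and control mice (y axis) for the 10 genes and 3 other glial lists in cerebellum and cortex; points are genes, filled where called, and bars are medians. In cerebellum the bar of the other Bergmann glia genes lies below 0 at -0.22 and that of the reactive astrocyte genes above it at 0.71.

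The partners of the 10 genes showed few calls in KO cerebella. No other tested gene of the renin-angiotensin system was called, and Ren1, Agtr1a and Agtr1b were too low to test. None of the other TIMP and metalloproteinase genes, GDF10 receptors and SMADs, bicarbonate transporters and carbonic anhydrases, aquaporins or glial connexins was called, while Slc4a10, a sodium bicarbonate transporter gene, was called lower without control 2. Between tissues in controls, 12 of 15 other Bergmann glia genes were called higher in cerebellum, led by Dao, and 1 lower. Of 28 other homeostatic astrocyte genes, 13 were called higher and 2 lower. Of all genes tested between tissues, 19.1% were called higher and 21.5% lower.

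Markers of other cell types differed in the same cerebella. Microglia markers summed to 194 to 220 CPM in controls and 291 to 298 in KO mice. Of the 10 markers, 3 were called higher (Fcrls, C1qb and C1qa), where 0.514% of all genes were. Markers of leptomeningeal fibroblasts, cells that also border the glial endfeet, were higher in 8 of 8 genes with none called, at 98.7 to 267 CPM in controls and 209 to 332 in KO mice (median log2 fold change 0.58). The lowest value was that of control 2, and without it 7 of 8 were higher, with a median of 0.34. No granule cell, endothelial or mural cell marker was called, with or without control 2. No oligodendrocyte marker was called with all libraries, and 2 of 10 lay above all controls (14.7% of all genes), with a median of 0.19. Without control 2, Cldn11, a tight junction gene of myelin, was called higher, 6 of 10 lay above, and the median was 0.37. Of all 19191 genes tested without control 2, 118 were called higher and 4346 lay above. Their part in the glial results was not tested.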

How the data were processed

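RNA of cerebellum and cortex was sequenced in 5 mice at 1 year of age. The authors deposited 1 table of raw gene counts, in read pairs, for each library. Per the file headers and the methods of the study, the authors aligned reads to GRCm38 with STAR and counted exons with featureCounts 2.0.1, without strand, with multimapping reads left out and pairs over several genes counted for each. Of 81881 entries, 55536 with a mouse gene identifier were used. The other 26345 held 0.16% to 0.926% of counts. Names came from GENCODE M21.

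The genes and lists were chosen with earlier results of these data known. Named genes were the 10 members, Snx14, at most 3 called genes of a list with the smallest adjusted p, and the 5 genes most correlated with the set among those of at least 1 CPM. Hopxos was named after its values were seen.

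Counts of all genes were fitted in edgeR 4.0.16 by its quasi-likelihood test (filterByExpr, count minimum 10, TMM) in R 4.3.3, with Benjamini-Hochberg adjustment. SEs were derived from the F statistic. CPM were TMM-scaled within a tissue unless stated, and correlations used log2 CPM with a prior count of 2. The code was tested on simulated counts. Replicates are separate mice. DESeq2 1.42.0, other scalings, no filter, a replicate block and leaving out each library were alternatives. Cerebellum and cortex of a mouse deviated together (r = 0.164 to 0.370), so the mouse pairs the tissues. Lists without control 2 were added after the data were seen.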

Additional observations from a re-analysis of the deposited data

How the results depend on the processing

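No call of the 10 genes reversed under any alternative. In cerebellum 302 genes were called, 842 without the filter on low counts and 133 to 400 when 1 library was left out, and the 5 called members became 2 to 6. In cortex 0 genes were called, 49 with DESeq2, 380 without the filter and 0 to 98 with 1 library left out, and the members called were 0, 1 without the filter and 0 to 1 with 1 library left out. For the interaction 21 genes passed, 219 with DESeq2, 599 without the filter and 3 to 117 with 1 library left out. The members passing were 0, 3 with DESeq2, 4 without the filter and 0 to 2 with 1 library left out. The causes were not tested.

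With the mouse as a replicate block, 128 genes and 2 members passed the interaction, and no call of a member between tissues in controls changed. The label numbers within a tissue mark different mice, whose deviations correlated at -0.0353 to 0.114. With that number as a replicate block, 181 genes were called in cerebellum and 3 in cortex, and Aqp4 had an adjusted p of 0.0607. With 2 KO mice, leaving 1 out leaves a lone library that is assumed to vary like the others, and genes of low count such as cortical Gdf10 and Agt limit what can be detected.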
